A study of Mus musculus with 8 samples.

Results

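Expression of 10 genes of the Wnt pathway was examined in endothelial cell isolates of mice with and without LRP1, a large endocytic receptor of the LDL receptor family that also takes part in signaling at the cell surface. The genes were picked by symbol and cover 3 ligands (Wnt2, Wnt4 and Wnt5a), 2 receptors (Fzd1 and Fzd2), 4 secreted factors of the inhibitor families (Sfrp1, Sfrp2, Dkk2 and Dkk3) and 1 target and feedback gene (Axin2). They were found as 10 of the 22520 genes listed, and 9 of them were among the 11389 genes abundant enough to be tested, which excludes Dkk2.

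Wnt proteins are secreted, lipid-carrying ligands that bind Frizzled receptors together with the co-receptors LRP5 or LRP6. Binding halts the destruction of β-catenin, which then enters the nucleus and switches on target genes with TCF/LEF factors, while some ligands such as WNT5A mostly act without β-catenin. In blood vessels the pathway is best known for the growth of retinal vessels and for the barrier of brain endothelium, and WNT2 is a ligand made by endothelium of the liver and by mesenchyme of the lung.

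RNA-seq was done on 4 WT and 4 LRP1 KO libraries from mice on the C57BL/6 background at postnatal day 14. Both groups carry floxed Lrp1, and the LRP1 KO mice also carry Cdh5-CreER, a tamoxifen-inducible Cre driven by an endothelial promoter, so the presence of Cre and the loss of Lrp1 cannot be told apart. The labels describe the cells of every library as mixed from heart, liver and lung, while the study's text treats liver cells apart from those of heart and lung, so the makeup of a library rests on the labels alone. Its methods give selection with PECAM-1 beads. The labels do not say whether each library came from its own animal or culture, so p-values measure the spread between these libraries, which may be technical. Values are FPKM, which corrects fragment numbers for transcript length and library total, and the sequencing depth behind them is unknown. The values are not plain FPKM, since the highest value was the same in all 8 libraries and, at 71.0% of the 11303 highest ranks, their ranked values lay within 1% of each other, as quantile normalization leaves them. The like number of genes at 1 FPKM or more, 11303 to 11344, therefore says nothing of depth. Lrp1 itself had 103 to 140 FPKM in WT but 2.79 to 7.72 FPKM in LRP1 KO libraries, so every library matched its label, and LRP1 KO library 4 kept the highest level among the knockouts.

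Defining endothelial markers were present, but every fibroblast and mesothelial marker listed had a higher WT mean than Pecam1 and Cdh5. In WT libraries Pecam1 was at 7.89 FPKM ± 0.812 (SD, n = 4) and Cdh5 at 9.59 ± 1.09, against 1177 ± 85.6 for the mesothelial gene Msln. The summed level of 14 endothelial markers ran from 170.4 to 185 FPKM in WT and from 178 to 614 in LRP1 KO libraries. For 12 fibroblast markers the sums were 2806 to 3966 FPKM in WT and 2281 to 3535 in LRP1 KO, and for 8 mesothelial markers 2438 to 2823 and 2097 to 2375. Sums of the 11 macrophage markers listed went from a range of 89.7 to 112 FPKM in WT to 228 to 555 in LRP1 KO, and those of 10 mural markers, carried mainly by Acta2 and Tagln, from 670.3 to 836 to a range of 1040 to 1627. Of 8 hepatocyte markers none reached a WT mean of 1 FPKM, while 2 of 8 lung epithelial and 3 of 8 cardiomyocyte markers did. The mean log2 levels of the mural and macrophage lists did not overlap between groups, whereas those of the endothelial, fibroblast and mesothelial lists did. Of the tested markers, 8 of 10 macrophage, 4 of 8 mural and 1 of 14 endothelial ones were called higher, beside 6.27% of all tested genes. Called lower were 3 of 12 fibroblast and 2 of 8 mesothelial markers, beside 7.31% of all tested genes. The part of these cells in the results on Wnt genes was not tested. In such bulk samples fewer cells of a type and less RNA per cell cannot be told apart.

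**Figure D1:**
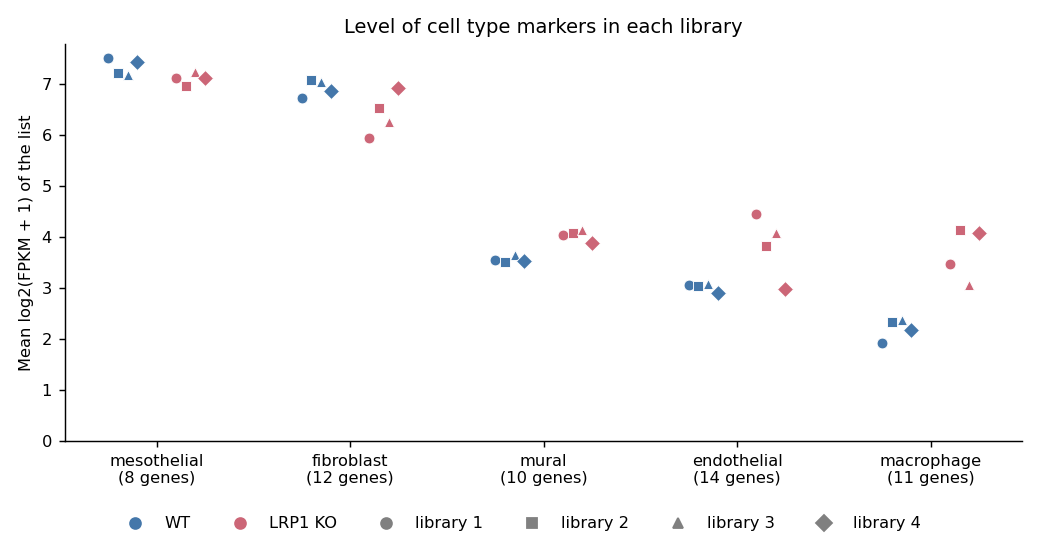
Mean log2(FPKM + 1) of marker genes of each cell type (vertical axis) in the 4 WT and 4 LRP1 KO libraries (points). Fibroblast markers lay at 6.73 to 7.09 in WT and 5.94 to 6.91 in LRP1 KO libraries, and macrophage markers at 1.93 to 2.38 and 3.06 to 4.14.

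The comparison of LRP1 KO with WT asked which of the Wnt genes differed between the genotypes. Lrp1 in the LRP1 KO libraries was at 3.99% of its WT mean although fibroblast and mesothelial marker sums were above endothelial ones in all libraries. Wnt2 rose, Sfrp2 and Axin2 fell, and the other 6 tested genes did not pass an adjusted p under 0.05 in limma. The 3 called genes are 33.3% of those tested, and over all tested genes the share was 13.6%, with 6.27% called higher and 7.31% called lower. With a change of at least 2-fold added, Wnt2 and Sfrp2 remained, and the share over all tested genes was 1.62%. The same 3 genes were those whose WT and LRP1 KO libraries did not overlap, which held for 19.6% of all tested genes. Estimates were positive for 4 and negative for 5 of the 9 genes, with a median log2 fold change of -0.17, against -0.00909 over all tested genes.

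**Figure D2:**
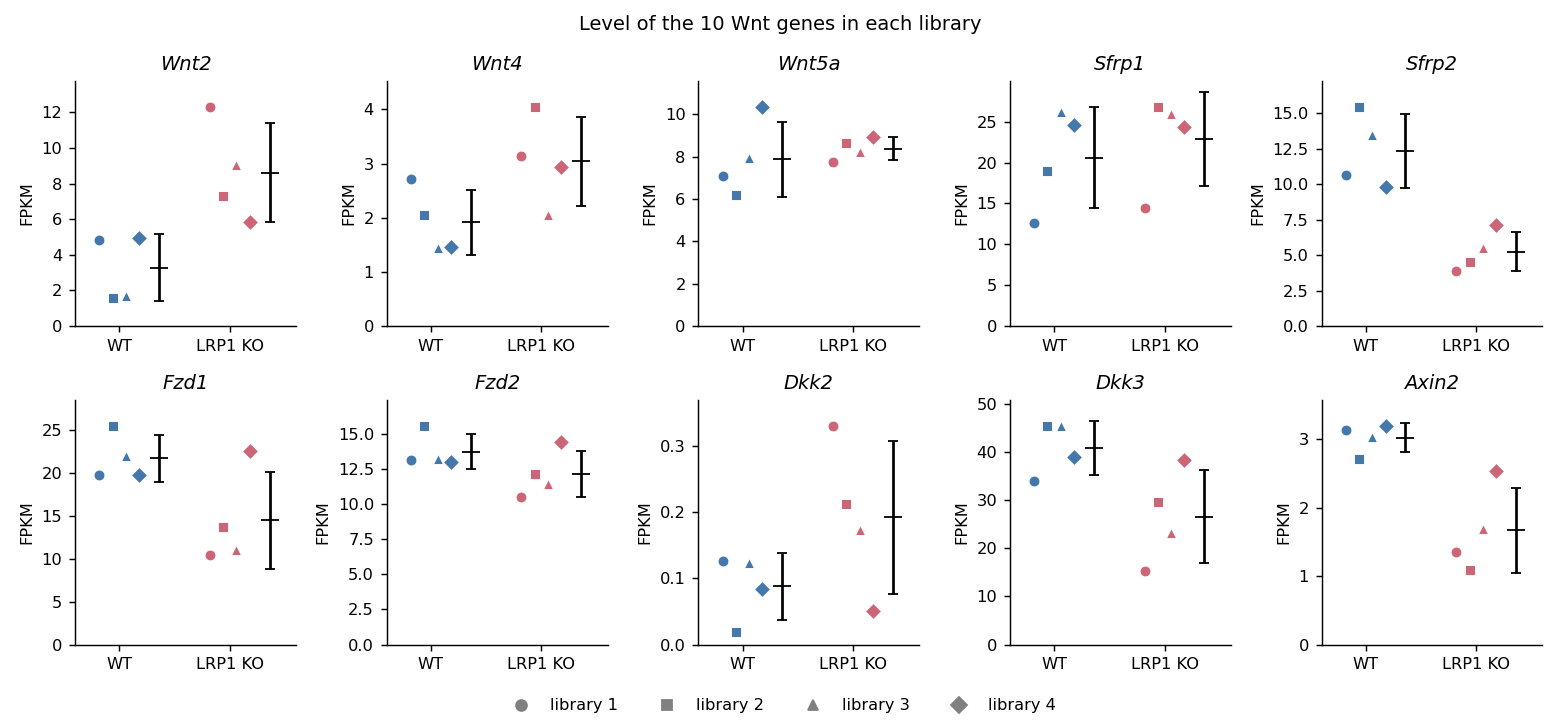
FPKM (vertical axis, from 0, with its own scale in each panel) of the 10 Wnt genes in the 4 WT and 4 LRP1 KO libraries (points), with the mean and SD. The groups do not overlap for Wnt2, Sfrp2 and Axin2, and LRP1 KO library 4 is the knockout nearest to the WT mean in 8 of the 10 genes. This count was not made over all tested genes.

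Promoters of the 3 genes that passed the test are shown for comparison of their base composition, as reference sequence from RefSeq in build GRCm38.p6, 5′ to 3′ on the gene's strand and ending before both RefSeq's start and that of the gene annotation. The Wnt2 stretch is chr6:18030586-18030695 on the minus strand, that of Sfrp2 is chr3:83766071-83766320 on the plus strand, and that of Axin2 is chr11:108920099-108920348 on the plus strand. Capitals mark CpG dinucleotides.
Wnt2: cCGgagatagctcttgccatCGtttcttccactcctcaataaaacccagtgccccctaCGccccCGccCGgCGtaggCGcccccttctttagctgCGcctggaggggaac
Sfrp2: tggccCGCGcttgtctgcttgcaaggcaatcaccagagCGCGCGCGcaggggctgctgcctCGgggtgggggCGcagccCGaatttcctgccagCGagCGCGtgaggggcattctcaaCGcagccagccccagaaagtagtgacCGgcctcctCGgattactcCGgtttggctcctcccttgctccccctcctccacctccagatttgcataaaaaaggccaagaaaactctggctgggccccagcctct
Axin2: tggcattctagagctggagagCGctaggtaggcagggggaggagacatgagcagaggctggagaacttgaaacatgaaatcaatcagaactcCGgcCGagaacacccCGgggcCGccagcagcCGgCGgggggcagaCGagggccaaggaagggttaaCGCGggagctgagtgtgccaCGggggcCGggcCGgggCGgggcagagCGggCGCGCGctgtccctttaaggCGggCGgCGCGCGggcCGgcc
In RefSeq's own windows, from 250 bases before to 50 after its start, Wnt2 had 27 CpG, Sfrp2 had 22 and Axin2 had 31, against a median of 7 over 32851 promoters. Promoters of Wnt4 (51), Fzd1 (16) and Dkk2 (11) also held more CpG than that median, so a high CpG count was shared by all 6 promoters found. The TCF/LEF word CTTTGNN, with A or T at each N and searched on both strands, occurred in 0 of these 6 windows and in 16.9% of all promoters. That count says only that these letters are not within the windows searched. RefSeq's start is not that of the gene annotation for Wnt2, Wnt4 and Fzd1: the Wnt2 window (chr6:18030396-18030695) reaches further into the annotated gene than the printed stretch, and the Fzd1 window (chr5:4758167-4758466) lies wholly upstream of the annotated gene. Wnt5a, Sfrp1, Fzd2 and Dkk3 were not matched.

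Among Wnt2, Wnt4 and Wnt5a, Wnt2 (ENSMUSG00000010797, chromosome 6, 17988940 to 18030585) was the one that passed the test. WT libraries 1 to 4 had 4.83, 1.59, 1.70 and 4.97 FPKM, and LRP1 KO libraries 1 to 4 had 12.3, 7.32, 9.02 and 5.84 FPKM. Every knockout library was above every WT library, with LRP1 KO library 4 the closest to WT. The mean went from 3.27 FPKM ± 1.88 to 8.62 ± 2.77 (SD, n = 4), a ratio of 2.63. On the log2(FPKM + 1) scale, on which all fold changes here are given and which understates those of low genes, the log2 fold change was 1.24 (SE 0.32, limma adjusted p = 0.0347), and the exact two-sided permutation p was 0.0286, the smallest that 4 against 4 libraries can give. WT libraries 1 and 4 were closer to LRP1 KO library 4 than to WT libraries 2 and 3. The call was lost when WT library 2 or 3 or LRP1 KO library 1, 2 or 3 was left out, with adjusted p from 0.0747 to 0.0969 and log2 fold changes over all omissions of 1.04 to 1.44. With the fibroblast score as a covariate the estimate was 0.53 (adjusted p = 0.517), with the endothelial score 0.82 (adjusted p = 0.604).

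The tested genes outside the pathway set whose pattern over the 8 libraries was closest to that of Wnt2 were Hbegf, Olr1, Sfn, Prr15l and Gdf6, with root mean square differences of 0.212, 0.220, 0.253, 0.284 and 0.286 after each gene was centred on its own mean log2 level. In all of them WT libraries 1 and 4 were above WT libraries 2 and 3, and LRP1 KO library 4 was the lowest of the knockouts, as for Wnt2. Because they were picked for a pattern like that of Wnt2, this shared order is no separate result. Hbegf, an EGF family growth factor, had 11.7, 4.39, 5.42 and 13.2 FPKM in WT, with 21.7, 16.2, 15.7 and 10.06 FPKM in the knockouts. Its groups overlapped and it did not pass the test (limma adjusted p = 0.0997). Gdf6, a BMP family ligand, ran from 22.4 to 38.5 FPKM in WT, with 59.9 to 85.6 FPKM in the knockouts.

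Wnt4 (ENSMUSG00000036856, chromosome 4), a ligand known for kidney and gonad development, was the least abundant of these 3 ligands. The WT values were 2.71, 2.06, 1.44 and 1.46 FPKM and those of LRP1 KO 3.14, 4.04, 2.05 and 2.93 FPKM. LRP1 KO library 3 lay within the WT range, and the log2 difference of 0.47 (SE 0.18, 95% interval 0.0685 to 0.87, limma adjusted p = 0.102) did not pass the test. Wnt5a (ENSMUSG00000021994, chromosome 14), the ligand best known for signaling without β-catenin, had WT values of 7.08, 6.20, 7.92 and 10.3 FPKM and knockout values of 7.73, 8.66, 8.20 and 8.95 FPKM. All knockout values fell inside the WT range. The log2 difference was 0.098 (95% interval -0.19 to 0.39, limma adjusted p = 0.621), which leaves room for a modest change in either direction.

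Of the 20 ligands looked up, 6 were tested, 1 passed the test upward and 1 downward, beside 6.27% and 7.31% of all tested genes. The gene that fell was Wnt2b, the closest relative of Wnt2, which went from 2.99 FPKM ± 0.243 to 1.50 ± 0.258 (SD, n = 4; log2 fold change -0.68, SE 0.10, limma adjusted p = 0.00432) with no overlap. Wnt2 therefore made up 64.1%, 33.2%, 34.7% and 63.4% of the summed Wnt2 and Wnt2b level in WT libraries 1 to 4 and 91.6%, 82.5%, 85.3% and 77.1% in the knockouts. Wnt9a, the most abundant ligand in WT libraries, was at 11.2 FPKM ± 1.62 and 10.6 ± 0.625 (limma adjusted p = 0.682). Summed over Wnt2, Wnt4 and Wnt5a, the level was 9.84 to 16.8 FPKM in WT and 17.7 to 23.2 FPKM in LRP1 KO, a difference carried mainly by Wnt2. Of the secretion genes, Wls, which carries Wnt proteins to the cell surface, rose from 90.5 FPKM ± 5.06 to 105.0 ± 5.07 (log2 fold change 0.21, limma adjusted p = 0.0425), and Porcn did not pass the test. Wnt2b passed whichever library was left out, but not with the fibroblast (-0.49, adjusted p = 0.0537) or endothelial score (-0.52, adjusted p = 0.111) as a covariate. The Wls call was lost without WT library 1, 2 or 4 or LRP1 KO library 1, 2 or 3 (adjusted p of 0.0799 to 0.127) with each marker covariate (0.214 to 0.634) and without the variance trend (0.0585).

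Neither Frizzled passed the test. Fzd1 (ENSMUSG00000044674, chromosome 5), a receptor for Wnt ligands, had WT values of 19.7, 25.5, 22.0 and 19.7 FPKM and knockout values of 10.5, 13.8, 11.0 and 22.6 FPKM. The first 3 knockout libraries lay below all WT libraries, and LRP1 KO library 4 lay within their range. The log2 difference was -0.61 (SE 0.21, 95% interval -1.08 to -0.15, limma adjusted p = 0.0767). It was -0.84 with an adjusted p of 0.00182 when LRP1 KO library 4 was left out, so the call turned on that library. With the fibroblast or endothelial score as a covariate the difference was -0.0618 or -0.0324, and with the mesothelial score it was -0.81 (limma adjusted p = 0.135).

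Fzd2 (ENSMUSG00000050288, chromosome 11), a close relative of Fzd1, had WT values of 13.2, 15.6, 13.2 and 13.0 FPKM and knockout values of 10.5, 12.2, 11.5 and 14.4 FPKM. The groups overlapped through LRP1 KO library 4. The log2 difference was -0.17 (95% interval -0.39 to 0.0495, limma adjusted p = 0.248). Fzd1 made up 60.0% to 62.4% of the summed level of both receptors in WT libraries, and 49.8%, 53.1%, 49.0% and 61.1% in LRP1 KO libraries 1 to 4.

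Of 19 receptors and co-receptors, 16 were tested and 1 passed the test, where 13.6% of all tested genes did. That gene was Tspan12, a partner of FZD4 in Norrin signaling, which rose from 3.29 FPKM ± 0.327 to 4.98 ± 0.876 (log2 fold change 0.47, SE 0.11, limma adjusted p = 0.0292). The co-receptor Lrp5 was at 20.7 FPKM ± 0.814 and 20.1 ± 1.28 (log2 difference -0.0457, limma adjusted p = 0.634), and Lrp6 at 9.24 and 8.52 FPKM (adjusted p = 0.468). Ryk, the most abundant receptor of the list, was at 53.05 and 55.1 FPKM (adjusted p = 0.505). In the R-spondin list of 9 genes, 4 were tested and Rspo1, a secreted ligand that strengthens Wnt signals, was the 1 that passed (13.6% of all tested genes did). Its level fell from 65.8 FPKM ± 7.19 to 40.4 ± 6.86 (log2 fold change -0.70, SE 0.12, limma adjusted p = 0.00847). Rspo1 passed whichever library was left out, but with the fibroblast or endothelial score the estimate was -0.45 or -0.43 (adjusted p = 0.115 and 0.204), and with the mesothelial score -0.72 (adjusted p = 0.0722). Tspan12 lost its call without WT library 1, 2 or 3 or LRP1 KO library 1, 2 or 3 (adjusted p of 0.0577 to 0.0825). With the fibroblast, endothelial and mesothelial scores its estimate was 0.28, 0.23 and 0.41 (limma adjusted p = 0.432, 0.621 and 0.169).

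Sfrp2 (ENSMUSG00000027996, chromosome 3, 83766321 to 83774316) had the clearest change among the inhibitors. SFRP proteins are secreted and carry a Frizzled-like domain with which they bind Wnt ligands. For Sfrp2 the WT libraries had 10.6, 15.4, 13.5 and 9.77 FPKM, and the LRP1 KO libraries had 3.91, 4.51, 5.50 and 7.10 FPKM. All knockout values were below all WT values, again with LRP1 KO library 4 the nearest. The mean fell from 12.3 FPKM ± 2.60 to 5.25 ± 1.39 (SD, n = 4), or to 42.6% of WT, with a log2 fold change of -1.10 (SE 0.18, limma adjusted p = 0.00746, exact two-sided permutation p = 0.0286). It passed the test whichever library was left out, at log2 fold changes of -1.23 to -0.99. With the fibroblast score as a covariate the estimate was -0.71 (adjusted p = 0.0916), and with the endothelial score -0.78 (adjusted p = 0.200).

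Sfrp1 (ENSMUSG00000031548, chromosome 8), of the same family, did not move with it. Its WT values of 12.6, 19.0, 26.2 and 24.6 FPKM stood beside knockout values of 14.5, 26.8, 26.0 and 24.4 FPKM, and the ranges overlapped almost fully. The log2 difference was 0.16 (SE 0.25, 95% interval -0.39 to 0.71, limma adjusted p = 0.683). Sfrp2 therefore made up 45.7%, 44.9%, 33.9% and 28.4% of the summed Sfrp1 and Sfrp2 level in WT, and 21.3%, 14.4%, 17.5% and 22.5% in LRP1 KO, with no overlap between groups.

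DKK proteins are secreted, and DKK2 binds LRP5 and LRP6, whereas DKK3 is a divergent member of the family whose place in Wnt signaling is less settled. Dkk3 (ENSMUSG00000030772, chromosome 7) was the most abundant of the 10 genes, with WT values of 34.0, 45.5, 45.4 and 39.0 FPKM and knockout values of 15.4, 29.6, 23.2 and 38.4 FPKM. Only LRP1 KO library 4 reached the WT range. The log2 difference was -0.66 (SE 0.23, 95% interval -1.19 to -0.14, limma adjusted p = 0.0847), and without LRP1 KO library 4 it was -0.86 with an adjusted p of 0.0139. With the fibroblast score as a covariate it was -0.00356 (adjusted p = 0.993), with the endothelial score -0.0318, and with the mesothelial score -0.93 (limma adjusted p = 0.122). Dkk2 (ENSMUSG00000028031, chromosome 3) was near the lower end of the scale, with WT values of 0.127, 0.0183, 0.123 and 0.0847 FPKM and knockout values of 0.331, 0.213, 0.174 and 0.0508 FPKM that overlapped them, and was not tested across genes. An exact two-sided permutation test on it alone gave p = 0.143.

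Over 16 inhibitors, 7 were tested, 2 passed the test upward and 1, Sfrp2, downward (6.27% and 7.31% of all tested genes). Frzb, also of the SFRP family, rose from 12.4 FPKM ± 3.02 to 20.5 ± 2.26 (log2 fold change 0.71, SE 0.15, limma adjusted p = 0.0218). Sfrp4 rose from 1.74 FPKM ± 0.206 to 4.62 ± 2.04 (log2 fold change 0.95, SE 0.26, limma adjusted p = 0.0448), although LRP1 KO library 4 was at 1.81 FPKM, inside the WT range. The Sfrp4 call was lost when any library but LRP1 KO library 4 was left out (adjusted p of 0.0769 to 0.124). With the fibroblast or endothelial score its estimate was 0.26 or 0.17, and with the mesothelial score 1.07 (limma adjusted p = 0.136). Frzb lost its call without WT library 2 or LRP1 KO library 2 or 3 (adjusted p of 0.0627 to 0.0671). The Frzb call was also lost with the fibroblast and endothelial scores, at estimates of 0.93 and 0.81 (adjusted p = 0.0537 and 0.203), and with the mesothelial score, at 0.43 (adjusted p = 0.180). Summed over Sfrp1, Sfrp2, Dkk2 and Dkk3, the level was 57.4 to 85.2 FPKM in WT and 34.1 to 69.9 FPKM in LRP1 KO.

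**Figure D3:**
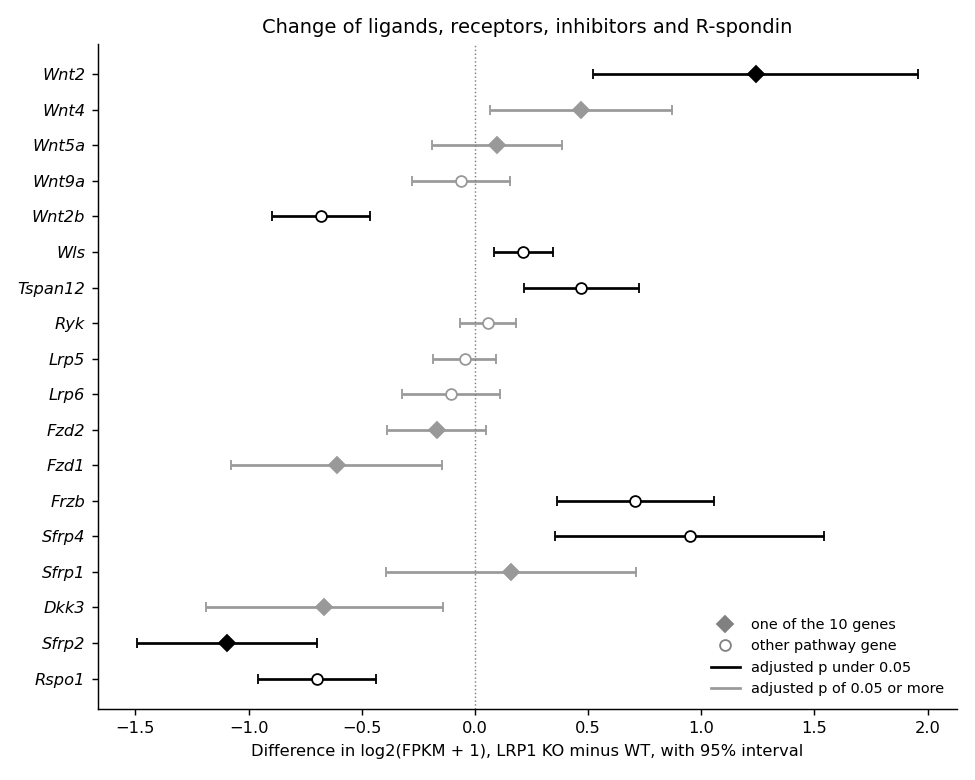
log2 fold change, LRP1 KO minus WT, on the log2(FPKM + 1) scale (horizontal axis) with its 95% interval for tested Wnt pathway genes named above. The estimates run from -1.10 for Sfrp2 to 1.24 for Wnt2.

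Axin2 (ENSMUSG00000000142, chromosome 11, 108920349 to 108950783) encodes a scaffold of the complex that destroys β-catenin and is itself switched on by β-catenin, which makes it a widely used readout of the pathway. The WT libraries had 3.14, 2.72, 3.04 and 3.20 FPKM, and LRP1 KO libraries 1 to 4 had 1.36, 1.10, 1.70 and 2.53 FPKM. The WT values were tight and all lay above the knockouts, with LRP1 KO library 4 just below them. The mean fell from 3.02 FPKM ± 0.213 to 1.67 ± 0.624 (SD, n = 4), or to 55.3% of WT, with a log2 fold change of -0.62 (SE 0.15, limma adjusted p = 0.0285, exact two-sided permutation p = 0.0286). Omitting any library other than LRP1 KO library 4 brought the adjusted p to between 0.0584 and 0.0834, while omitting that library gave -0.76 with an adjusted p of 0.00164. The fall was -0.43 (adjusted p = 0.401) with the fibroblast and -0.31 (adjusted p = 0.608) with the endothelial score as a covariate, and -0.46 (adjusted p = 0.199) with the mesothelial score. With the mesothelial score Wnt2 and Sfrp2 still passed the test, at 1.92 and -1.25.

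The list of β-catenin targets did not go 1 way. Of its 14 genes, Axin2 included, 9 were tested, 4 passed the test upward and 2, Axin2 and Nkd1, downward (6.27% and 7.31% of all tested genes). Nkd1, a feedback inhibitor that binds Dishevelled, fell like Axin2, from 19.7 FPKM ± 2.97 to 10.4 ± 4.72 (log2 fold change -0.94, SE 0.24, limma adjusted p = 0.0334). In the knockouts Nkd1 had 6.90, 10.1, 7.31 and 17.1 FPKM, so LRP1 KO library 4 was again closest to WT. The Nkd1 call was lost when any other library was left out (adjusted p of 0.0542 to 0.0978), and with the fibroblast or endothelial score the estimate was -0.31 or -0.28. With the mesothelial score it was -1.18 and did not pass either (limma adjusted p = 0.0901). The genes that rose were Ccnd1 and Myc, which drive cell growth and division, the adhesion receptor Cd44 and the matricellular gene Wisp1. Ccnd1 went from 29.1 FPKM ± 7.71 to 70.01 ± 22.6 (log2 fold change 1.21, limma adjusted p = 0.0235), and Myc from 17.7 FPKM ± 1.08 to 26.4 ± 3.77 (log2 fold change 0.54, limma adjusted p = 0.0121). For Cd44 the log2 fold change was 1.08 (adjusted p = 0.0170) and for Wisp1 0.54 (adjusted p = 0.0279). Myc passed whichever library was left out. The calls of Ccnd1 and Wisp1 were lost without WT library 1 or 2 or LRP1 KO library 1, 2 or 3, and that of Cd44 without WT library 2 or LRP1 KO library 1, 2 or 3, with adjusted p from 0.0503 to 0.0831. None of these 4 passed with a marker covariate: with the fibroblast, endothelial and mesothelial scores the estimates were 0.63, 0.63 and 1.46 for Ccnd1, 0.36, 0.29 and 0.52 for Myc, 0.70, 0.56 and 1.05 for Cd44, and 0.58, 0.62 and 0.60 for Wisp1. Apcdd1, Tcf7 and Znrf3 had negative estimates that did not pass the test, and Lef1, Notum, Rnf43, Lgr5 and Sp5 were too low to be tested.

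**Figure D4:**
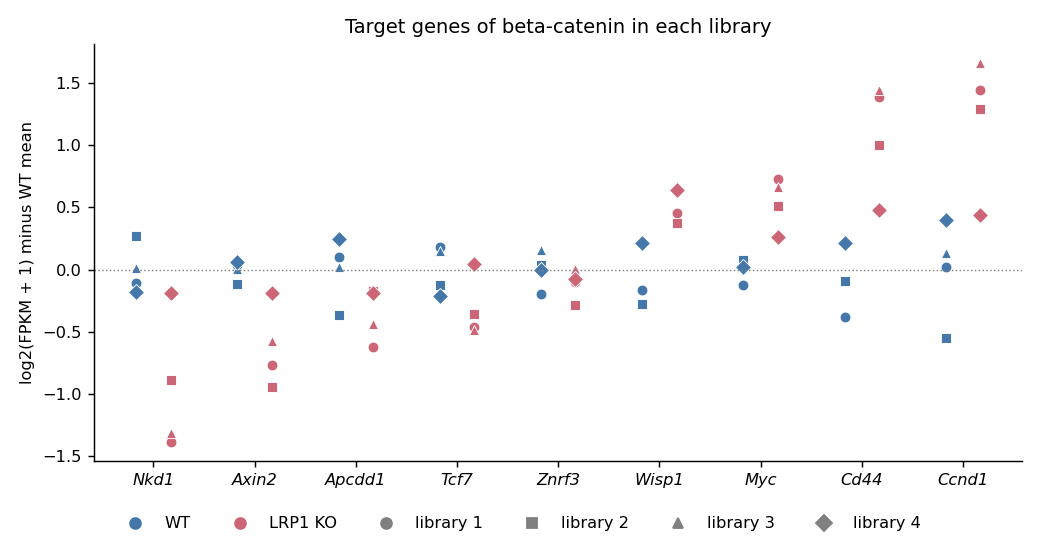
Difference of log2(FPKM + 1) from the WT mean (vertical axis) for the β-catenin target genes in each WT and LRP1 KO library (points). Axin2 in the knockouts lies between -0.94 and -0.19, whereas Ccnd1 lies between 0.44 and 1.66.

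Of 17 cytoplasmic transducers, all tested, none passed the test upward and 3 downward (6.27% and 7.31% of all tested genes), namely Axin2, Nkd1 and Dvl2, a Dishevelled protein that relays the signal from Frizzled (log2 fold change -0.38, limma adjusted p = 0.0428). Ctnnb1, which encodes β-catenin, was at 170.8 FPKM ± 5.87 in WT and 184.6 ± 8.91 in LRP1 KO (log2 difference 0.11, limma adjusted p = 0.178). Of 13 nuclear effectors 11 were tested and 2 passed, both downward, the direction of 7.31% of all tested genes. These were Bcl9, a β-catenin co-activator (log2 fold change -0.46, adjusted p = 0.0167), and the co-repressor Tle2 (log2 fold change -0.33, adjusted p = 0.0298), while Pygo2, the most abundant of the list, had an adjusted p of 0.970. Dvl2 lost its call when any library but LRP1 KO library 4 was left out, Tle2 without any WT library or LRP1 KO library 1 or 3, and Bcl9 without WT library 2 or LRP1 KO library 1 or 2, with adjusted p from 0.0527 to 0.121. None of these 3 passed with a marker covariate: with the fibroblast, endothelial and mesothelial scores the estimates were -0.16, -0.20 and -0.50 for Dvl2, -0.25, -0.27 and -0.43 for Tle2, and -0.28, -0.28 and -0.51 for Bcl9. Of the 15 genes tied to Wnt signaling in endothelium 13 were tested, and Wnt2 and Tspan12 were the 2 that passed, both upward, as 6.27% of all tested genes did, while Slc2a1, the glucose transporter of barrier endothelium, was at 42.0 and 46.2 FPKM (adjusted p = 0.264). Over the 62 tested pathway genes outside the set of 10, 14 passed the test (22.6%, against 13.6% of all tested genes), 8 upward and 6 downward, and the median log2 fold change was 0.0258.

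The 10 genes varied among themselves in how the knockout libraries were ordered. LRP1 KO library 4 kept the most Lrp1 of the knockouts. Its fibroblast score of 6.91 and endothelial score of 2.97 were inside the WT range, but its macrophage (4.08), mural (3.88) and mesothelial (7.12) scores were outside it. Among the 10 genes it was the knockout nearest to the WT mean for all but Wnt4 and Wnt5a. This count was not made over all tested genes, of which 1547 were called as reported and 2959 without LRP1 KO library 4. LRP1 KO library 1 had the lowest fibroblast score, 5.94, and the highest endothelial score, 4.45. Of the knockouts it also had the highest Wnt2 and Dkk2 and the lowest Sfrp2, Fzd1, Fzd2, Sfrp1, Dkk3 and Wnt5a. LRP1 KO library 2 instead had the lowest Axin2 (1.10 FPKM) and the highest Wnt4 (4.04 FPKM). With the fibroblast or endothelial score as a covariate 0 of the 9 genes passed an adjusted p under 0.05 in limma. Of all 11389 tested genes 190 (fibroblast) or 142 (endothelial) passed it. At an unadjusted p under 0.05 in limma there were 2 (fibroblast) or 1 (endothelial) of the 9 genes, beside 1416 or 1146 of all tested genes.

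**Figure D5:**
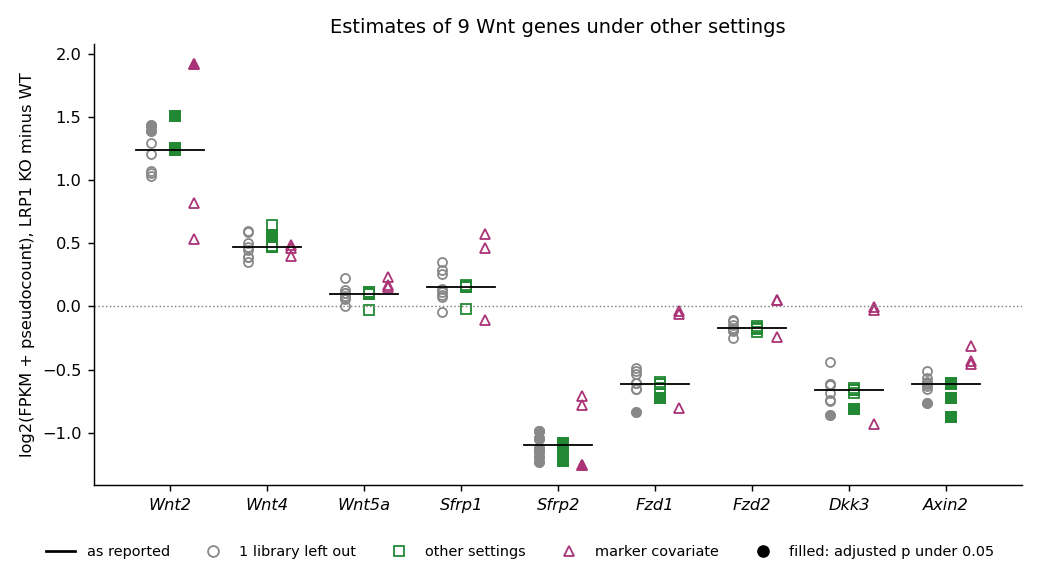
log2 fold change, LRP1 KO minus WT (vertical axis), of the 9 tested Wnt genes as reported, with each library left out, under other settings and with a marker score as a covariate. Filled points have an adjusted p under 0.05, and Sfrp2 stays between -1.25 and -0.71 in all settings.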

How the data were processed

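The deposited table holds 1 value per gene and library. Its header names no unit, and the values were taken as FPKM made by the authors, since the submitters' processing notes name TopHat2, Cufflinks and build mm10. The study's methods describe another route with STAR, featureCounts and edgeR, and depth is not given in the sources used here. The column totals were 503571 to 504112 and the highest value was the same in each library, so the values look quantile normalized, a step that is not given in the sources used here. Genes with at least 1 FPKM in at least 4 libraries (11389) were tested on log2(FPKM + 1) with limma 3.58.1 in R 4.3.3 (variance trend, group only, Benjamini-Hochberg adjustment over all of them). Single genes were also given an exact two-sided permutation test over the 70 assignments of libraries to groups. The procedure was tested on simulated data. Marker scores are means of log2(FPKM + 1) over a marker list.

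The members, pathway lists and markers were chosen with earlier results of these data known. All members were named; other pathway genes were named if they passed the test, were the most abundant of their list in WT, or were Lrp5, Lrp6 or Ctnnb1, and for Wnt2 the 5 tested genes with the most similar pattern. Alternatives were another pseudocount, filters, scaling, library weights, no variance trend, a replicate block, marker covariates and leaving out each library; the mesothelial covariate was added after the data were seen.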

Additional observations from a re-analysis of the deposited data

Results flagged for a closer look

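Fzd2 in WT library 2 stood apart from the other WT libraries. It was at 15.6 FPKM against 13.0 to 13.2 FPKM in the other 3, and the gap to the nearest of them was 0.912 of the group's whole range, above Dixon's 95% critical value for 4 samples. It was the 1 such case in 64 groups (32 named genes, each in WT and LRP1 KO), where chance gives about 1 in 20 groups. Without WT library 2 the log2 difference of Fzd2 did not pass the test either.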

How the results depend on the processing

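Against 3 of the Wnt genes called as reported, 1 was called with no filter on low values, 6 with library weights, 0 with the fibroblast or endothelial covariate (2 and 1 at an unadjusted p under 0.05 in limma), and 1 to 5 when a library was left out. The genes added by the weights were Wnt4, Fzd1 and Dkk3 (adjusted p of 0.0415, 0.0137 and 0.0270). With a change of at least 2-fold, 2 were called as reported, 1 with no filter, 0 with the fibroblast or endothelial covariate, and 0 to 2 when a library was left out. Over all tested genes 1547 were called, against 523 with no filter, 3003 with library weights, 190, 142 and 173 with the fibroblast, endothelial and mesothelial covariates, and 433 to 2959 with a library left out. With at least 2-fold, 184 became 113, 282, 105, 92 and 97 in that order, and 113 to 312 with a library left out. At an unadjusted p under 0.05 in limma there were 3838 of all tested genes as reported, and 1416 and 1146 with the fibroblast and endothelial covariates. The covariates also raised the median SE over all tested genes, from 0.0880 to 0.112, 0.119 and 0.123.

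With the replicate number as a block, 1013 of all tested genes were called in place of 1547, and the same 3 Wnt genes passed. Of the other pathway genes named, Wls, Tspan12, Sfrp4, Dvl2, Nkd1, Tle2 and Ccnd1 lost their call with the block, at adjusted p of 0.0503 to 0.0721. The numbers do not mark a shared animal in the labels, so they were not used as pairs. Correlations of same-numbered libraries were 0.158, 0.141, 0.340 and -0.31. LRP1 KO libraries 1, 2 and 3 each correlated best with the WT library of the same number, and LRP1 KO library 4 with WT library 2. WT libraries 1 and 3 also matched best by number, while WT libraries 2 and 4 correlated best with LRP1 KO libraries 4 and 3. Whether same-numbered libraries share a batch was not tested.

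The direction turned only for genes that had not passed the test. Wnt5a became -0.0249 with library weights. Sfrp1 became -0.0174 with library weights and -0.11 with the mesothelial covariate, and ran from -0.0465 to 0.35 with a library left out, the lowest without WT library 1. With the fibroblast and endothelial covariates Fzd2 became 0.0516 and 0.0480, and Lrp5 0.0248 and 0.0103. With the mesothelial covariate Wnt9a became 0.16, Slc2a1 -0.0336 and Pygo2 -0.0195. Pygo2 ran from -0.0339 to 0.0258 with a library left out and was negative without WT library 2, WT library 4 or LRP1 KO library 2. The cause of these changes was not tested. Wnt2 and Axin2 also lost their call with no filter (adjusted p of 0.123 and 0.0941), as did all other pathway genes named as passing except Wnt2b and Rspo1 (0.0560 to 0.139), where 22520 genes were tested, and a filter at 3 FPKM left Wnt4 and Axin2 untested. Low genes such as Dkk2 are limited by depth, which is unknown.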
